A study of Mus musculus with 6 samples.

Results

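Matrix glycoproteins and proteoglycans are the secreted proteins, other than collagens, that build the extracellular matrix of adipose tissue (AT). The group described here is a list of 40 such genes. No measured value entered the naming of these genes, but the list was chosen with earlier results of these data known. A gene counted as measured where a probe set of the array is annotated to its symbol alone, which held for 35 of the 40 genes, out of 17097 genes measured in all. Fbn1, Lama4, Nid2, Efemp2 and Thbs1 had no probe set named for them here. Where a gene had several probe sets, the brightest over all 6 arrays stood for it.

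Eosinophils were sorted from the stromal vascular fraction (SVF) of inguinal subcutaneous (subcut) AT of male FVB/NJ littermates, 3 WT and 3 Klf3-/- mice, all aged 12 weeks, housed at 22 °C on chow and given no treatment. The knockout is global and not restricted to eosinophils, and the mice came from crosses of heterozygotes. KLF3 is a transcriptional repressor of the Krüppel-like family. The gate took live cells positive for CD45, CD11b, F4/80 and Siglec-F with high side scatter, and RNA of each mouse was hybridised to 1 Affymetrix HT MG-430PM array. The comparison asked which genes differ in AT eosinophils when KLF3 is absent. Values below are log2 intensities after quantile normalisation between arrays, means are given ± SD over the 3 mice of a genotype, and the brightness of a probe set, which decides which genes stand for a list as its brightest, is not a measure of one gene's mRNA against another's.

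Fibroblasts and adipocyte progenitors are the usual makers of most of these proteins in AT. Elastin is laid down on microfibrils of fibrillins and microfibril-associated proteins, laminins and nidogens with the proteoglycan perlecan form basement membranes, and small leucine-rich proteoglycans such as decorin coat collagen fibrils. Fibronectin, tenascins, thrombospondins and further matricellular proteins link cells to this scaffold. KLF3 binds CACCC boxes in DNA and recruits corepressors.

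Of the Klf3 probe sets, 5 of 6 lay above WT in all Klf3-/- arrays and 1 lay below, and the brightest read 8.79, 8.06 and 8.48 in WT mice 1 to 3 and 8.89, 9.29 and 9.22 in Klf3-/- mice 1 to 3. No source used here says which of these probe sets read the disrupted part, so they leave the genotype unchecked. Array medians of the deposited intensities ran from 30.3 to 58.7, which is why values were normalised. Siglecf, Ccr3, Epx and Prg2, which define eosinophils, all lay below 5.10, the background level set by 44 olfactory receptor probe sets, and 4 of 11 measured eosinophil markers lay above it. Above the level lay 14 of 14 macrophage, 18 of 19 stromal fibroblast and adipocyte progenitor, and 11 of 11 endothelial markers. So did 8 of 8 general leukocyte, 7 of 8 smooth muscle and pericyte, and 3 of 8 mesothelial markers. Ptprc, which encodes CD45, read 10.68 to 11.42 across the 6 arrays. Samples are called eosinophils by their sort label.

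Members of the group were mostly higher in the Klf3-/- samples: 28 of the 35 were higher and 7 lower. Their median log2 fold change was 0.73, against −0.04 over all genes. In 14 members the mean difference was 2-fold or more upward, led by Fn1 (5.21-fold), Ecm1 (4.48-fold), Thbs2 (4.07-fold) and Efemp1 (3.98-fold), and in 1, Mfap4, it was 2-fold or more downward. No member passed an adjusted p of 0.05 in limma over all 45037 probe sets (lowest adjusted p = 0.200, Ecm1), where 0% of probe sets passed. At an unadjusted p under 0.05, 16 members (45.7%) were higher and 0 lower, beside 3.61% and 2.47% of all genes. In 16 members every Klf3-/- array lay above every WT array and in 0 below, where 4.84% of all genes lay above and 6.55% below. These 16 members and the 16 at an unadjusted p under 0.05 shared 15. Dcn passed on p alone, with overlapping arrays, and Lamc1 on the lack of overlap alone. Members are not independent of each other, since they were read on the same 6 arrays. The p-values set the genotype difference against the spread between these mice, which limma estimates with the help of all probe sets.

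**Figure D1:**
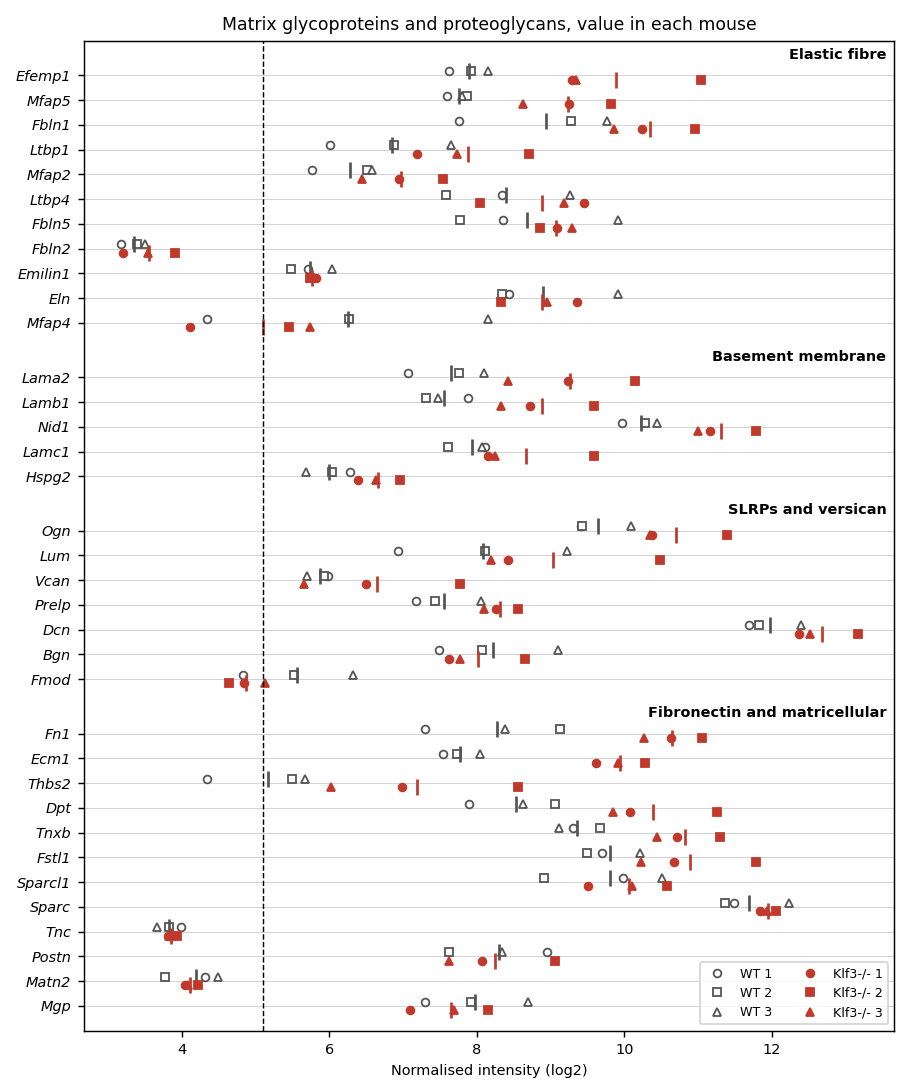
Normalised intensity (log2) of the brightest probe set of each of the 35 measured genes in each mouse. Open grey symbols are WT mice and filled red symbols Klf3-/- mice (circle, mouse 1; square, mouse 2; triangle, mouse 3), vertical ticks are genotype means, with the background level of 5.10 dashed; in 16 genes all red symbols lie to the right of all grey ones, and Klf3-/- mouse 2 is most often farthest right.

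Upstream DNA of the members is shown first, because KLF3 binds CACCC boxes. Whether such boxes bear on the differences between genotypes was not tested. RefSeq windows (mouse build GRCm38.p6) of the 250 bases before an annotated transcript start were held for 27 of the 40 genes, 25 of them measured. The 5 measured members with the smallest p in the genotype comparison that had a window are printed 5′ to 3′ along the strand of the gene, with each CACCC, or GGGTG where the box is on the opposite strand, in capitals.
Ecm1, chr3:95739570-95739819, minus strand: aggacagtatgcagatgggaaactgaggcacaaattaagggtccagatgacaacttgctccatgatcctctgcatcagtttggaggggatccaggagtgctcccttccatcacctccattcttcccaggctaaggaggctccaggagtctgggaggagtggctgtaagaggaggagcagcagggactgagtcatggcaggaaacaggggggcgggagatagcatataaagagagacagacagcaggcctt
Tnxb, chr17:34670285-34670534, plus strand: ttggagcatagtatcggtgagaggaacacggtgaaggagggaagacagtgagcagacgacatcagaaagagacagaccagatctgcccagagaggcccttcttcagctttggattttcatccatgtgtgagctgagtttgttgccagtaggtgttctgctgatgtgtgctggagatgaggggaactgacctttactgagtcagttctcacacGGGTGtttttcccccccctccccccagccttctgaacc
Efemp1, chr11:28852955-28853204, plus strand: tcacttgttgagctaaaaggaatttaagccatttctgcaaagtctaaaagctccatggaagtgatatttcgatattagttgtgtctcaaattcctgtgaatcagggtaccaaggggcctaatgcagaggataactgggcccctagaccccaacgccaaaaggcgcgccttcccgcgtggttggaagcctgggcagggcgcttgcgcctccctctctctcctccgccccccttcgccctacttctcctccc
Dpt, chr1:164796413-164796662, plus strand: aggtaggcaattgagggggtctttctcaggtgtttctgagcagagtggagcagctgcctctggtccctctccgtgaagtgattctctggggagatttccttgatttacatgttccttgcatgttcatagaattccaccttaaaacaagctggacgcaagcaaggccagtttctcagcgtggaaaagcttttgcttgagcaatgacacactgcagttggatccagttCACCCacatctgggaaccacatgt
Nid1, chr13:13437352-13437601, plus strand: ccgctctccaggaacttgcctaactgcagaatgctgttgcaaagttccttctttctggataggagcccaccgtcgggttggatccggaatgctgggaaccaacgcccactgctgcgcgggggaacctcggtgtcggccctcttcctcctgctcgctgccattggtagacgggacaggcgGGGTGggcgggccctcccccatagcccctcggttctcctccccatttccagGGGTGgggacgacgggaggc
The Tnxb start lies within the full extent of the gene. A box was found once in the Tnxb and Dpt windows and at 2 places in that of Nid1, and the Ecm1 and Efemp1 windows held none. Over either strand, 11 of 13 members at an unadjusted p under 0.05 with a window held a box (84.6%), as did 9 of 12 other measured members (75.0%). Of all genes of the arrays with a window 60.9% held one, and the median G and C content of their windows was 57.6%, against 54.4% for the measured members. Genes with several starts counted once, with a box in any window. A match describes these letters only and shows no binding.

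Fibronectin, tenascins, thrombospondins and other matricellular genes held the largest differences, with 9 of 12 measured members higher, 6 of them at an unadjusted p under 0.05, and a median log2 fold change of 0.68. Of all genes 3.61% were higher at that threshold, the share to set beside the count of each role group. Ecm1, which encodes extracellular matrix protein 1, a secreted glycoprotein that binds several matrix components, read 7.55, 7.73 and 8.04 in WT mice 1 to 3 and 9.62, 10.28 and 9.91 in Klf3-/- mice 1 to 3. The gap between the genotypes exceeded the spread within either. The log2 fold change was 2.16 (limma standard error 0.24 and adjusted p = 0.200), the smallest p of the group.
Fn1 encodes fibronectin, the glycoprotein through which integrins tether cells to matrix. It read 7.29, 9.13 and 8.38 in the WT mice against 10.64, 11.06 and 10.26 in the Klf3-/- mice. All Klf3-/- mice lay above all WT mice, although WT mice were spread more widely than Klf3-/- mice. Means were 8.27 ± 0.92 in WT and 10.65 ± 0.40 in Klf3-/-, and the log2 fold change was 2.38 (limma standard error 0.46 and adjusted p = 0.663).
Tnxb encodes tenascin X, which binds collagen fibrils, and read 9.30, 9.66 and 9.11 in the WT mice against 10.72, 11.30 and 10.45 in the Klf3-/- mice. The genotypes did not overlap, and the log2 fold change of 1.46 (limma standard error 0.28 and adjusted p = 0.663) was alike in the 3 replicate numbers, at 1.42, 1.64 and 1.33.

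Dpt encodes dermatopontin, a small protein that binds decorin and fibronectin. It read 7.90, 9.06 and 8.62 in the WT mice against 10.07, 11.25 and 9.85 in the Klf3-/- mice, without overlap, and its log2 fold change was 1.86 (limma standard error 0.44 and adjusted p = 0.736). Thbs2 encodes thrombospondin 2, an inhibitor of vessel growth, and read 4.34, 5.49 and 5.67 in the WT mice against 6.99, 8.55 and 6.03 in the Klf3-/- mice. Here WT mouse 1 lay below the background level and Klf3-/- mouse 3 was only slightly above the highest WT mouse, with a log2 fold change of 2.02 (limma standard error 0.65 and adjusted p = 0.865). Fstl1, a secreted relative of SPARC, had a log2 fold change of 1.09 (limma standard error 0.41 and adjusted p = 0.868), and its second probe set had 1.29. In its brightest probe set Klf3-/- mouse 3 (10.220) barely exceeded WT mouse 3 (10.210), and Klf3-/- mouse 2 was highest (11.78).
The other 6 matricellular members had small differences. Sparc, the collagen-binding protein osteonectin, read 11.70 ± 0.47 in WT and 11.95 ± 0.11 in Klf3-/- and had a log2 fold change of 0.25 (95% interval −0.37 to 0.87). Sparcl1, its relative, had 0.26 (−0.80 to 1.33) and Postn, which encodes periostin, −0.05 (−1.12 to 1.02). Mgp, the calcification inhibitor matrix Gla protein, had the lowest log2 fold change of this group, −0.33, with 7.97 ± 0.70 in WT and 7.64 ± 0.53 in Klf3-/-. Tnc (tenascin C) and Matn2 (matrilin 2) lay below the background level in both genotypes, with means over all arrays of 3.84 and 4.16.

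Basement membrane genes were all higher, 5 of 5 measured. In all 5 every Klf3-/- array lay above every WT array, beside 4.84% of all genes. As deposited, without scaling between arrays, only Lamb1 of these kept that separation. The median log2 fold change of the 5 was 1.09, and 4 had an unadjusted p under 0.05, beside 3.61% of all genes. Nid1 encodes nidogen 1, which bridges laminin and collagen IV, and read 9.96, 10.27 and 10.44 in the WT mice against 11.17, 11.79 and 11.00 in the Klf3-/- mice. The mice of each genotype kept close together, with a log2 fold change of 1.09 (limma standard error 0.26 and adjusted p = 0.736), and its second probe set gave 1.11.
Of the laminin chains, Lama2 (α2) had the largest difference of this group. It read 7.07, 7.76 and 8.10 in the WT mice against 9.24, 10.14 and 8.43 in the Klf3-/- mice. With means of 7.64 ± 0.52 and 9.27 ± 0.86, the log2 fold change was 1.62 (limma standard error 0.46 and adjusted p = 0.854). Lamb1 (β1) read 7.88, 7.31 and 7.47 in the WT mice against 8.72, 9.59 and 8.33 in the Klf3-/- mice, a log2 fold change of 1.33 (limma standard error 0.34 and adjusted p = 0.808). Klf3-/- mouse 2 was highest and mouse 3 lowest of the Klf3-/- mice in both chains. All 4 Lamb1 probe sets were higher, with log2 fold changes of 0.12 to 1.91, the smallest from a probe set below the background level.
Lamc1 (γ1), the chain that most laminins share, had a log2 fold change of 0.73 that rested on Klf3-/- mouse 2, with 8.11, 7.61 and 8.07 in the WT mice against 8.15, 9.59 and 8.25 in the Klf3-/- mice. Hspg2, which encodes perlecan, had the smallest difference of the group, reading 6.003 ± 0.30 in WT and 6.66 ± 0.29 in Klf3-/- (log2 fold change 0.66, adjusted p = 0.868).

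Small leucine-rich proteoglycans and versican were divided, 5 of 7 being higher. Of these, 3 had an unadjusted p under 0.05, and the median over the 7 was 0.76. Ogn encodes osteoglycin and read 9.42, 9.43 and 10.09 in the WT mice against 10.37, 11.39 and 10.35 in the Klf3-/- mice. All Klf3-/- mice were above WT mouse 3, the highest WT mouse. Means were 9.64 ± 0.38 and 10.70 ± 0.60, a log2 fold change of 1.06 (limma standard error 0.35 and adjusted p = 0.868). Prelp, a proteoglycan that joins basement membrane to connective tissue, read 7.17, 7.43 and 8.05 in the WT mice against 8.26, 8.57 and 8.10 in the Klf3-/- mice. WT mouse 3 and Klf3-/- mouse 3 nearly met, and the log2 fold change was 0.76 (limma standard error 0.27 and adjusted p = 0.868).
Dcn, which encodes decorin, the collagen-coating proteoglycan, read 11.97 ± 0.38 in WT and 12.68 ± 0.42 in Klf3-/-. WT mouse 3 (12.40) exceeded Klf3-/- mouse 1 (12.37), so the genotypes overlapped. Lum (lumican) spread over more than 2 log2 units within each genotype and had a log2 fold change of 0.95 (95% interval −0.83 to 2.72). Vcan, the large hyaluronan-binding proteoglycan versican, had 0.78, and its 5 probe sets ran from −0.10 to 2.26, the lowest from a probe set below the background level.
Both lower members bind collagen fibrils and TGF-β. Bgn (biglycan) had a log2 fold change of −0.20, and Fmod (fibromodulin) had −0.69 (limma standard error 0.38 and adjusted p = 0.910), the lowest of this group. Fmod read 4.83, 5.52 and 6.33 in the WT mice against 4.84, 4.65 and 5.12 in the Klf3-/- mice, close to the background level, with means of 5.56 ± 0.75 and 4.87 ± 0.24. Its difference lay in WT mice 2 and 3 since WT mouse 1 was level with the Klf3-/- mice.

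Elastic fibre and microfibril genes varied most, with 9 of 11 measured members higher, 3 of them at an unadjusted p under 0.05, and a median log2 fold change of 0.49. Efemp1, which encodes fibulin 3, read 7.62, 7.92 and 8.16 in the WT mice against 9.30, 11.04 and 9.34 in the Klf3-/- mice. WT mice were tightly grouped and Klf3-/- mouse 2 stood well above the other Klf3-/- mice. Means of 7.90 ± 0.27 and 9.89 ± 0.99 gave a log2 fold change of 1.99 (limma standard error 0.47 and adjusted p = 0.736). Mfap5, a microfibril-associated glycoprotein, read 7.60, 7.87 and 7.79 in the WT mice against 9.25, 9.82 and 8.63 in the Klf3-/- mice. The WT range was narrower than the gap to the lowest Klf3-/- mouse, with a log2 fold change of 1.48 (limma standard error 0.31 and adjusted p = 0.663) and 0.99 from a second probe set.
Fbln1 (fibulin 1) had a log2 fold change of 1.42, with 1 of its 3 probe sets at −0.09. Ltbp1, which holds latent TGF-β in the matrix, had 1.03 (95% interval −0.17 to 2.23) and Mfap2, a microfibril component, 0.70 (−0.12 to 1.52), both with overlap between genotypes. Ltbp4 had 0.49 and Fbln5, which helps elastin assemble, 0.40.
Eln itself, the elastin gene, read 8.90 ± 0.88 in WT and 8.88 ± 0.52 in Klf3-/-, a log2 fold change of −0.02 with a 95% interval of −1.13 to 1.09, so a 2-fold difference either way lay within the interval. Emilin1, an elastic fibre glycoprotein, had 0.03 with a narrower interval of −0.45 to 0.50. Fbln2 lay below the background level in both genotypes.
Mfap4, a microfibril-associated protein abundant in vessel walls, was the lowest of all members with a log2 fold change of −1.15 (limma standard error 0.92 and adjusted p = 0.949). It read 4.34, 6.27 and 8.15 in the WT mice against 4.12, 5.46 and 5.74 in the Klf3-/- mice. WT mice 1 and 3 lay farther apart than the genotype means of 6.25 ± 1.90 and 5.11 ± 0.87, and mouse 1 of each genotype lay below the background level.

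**Figure D2:**
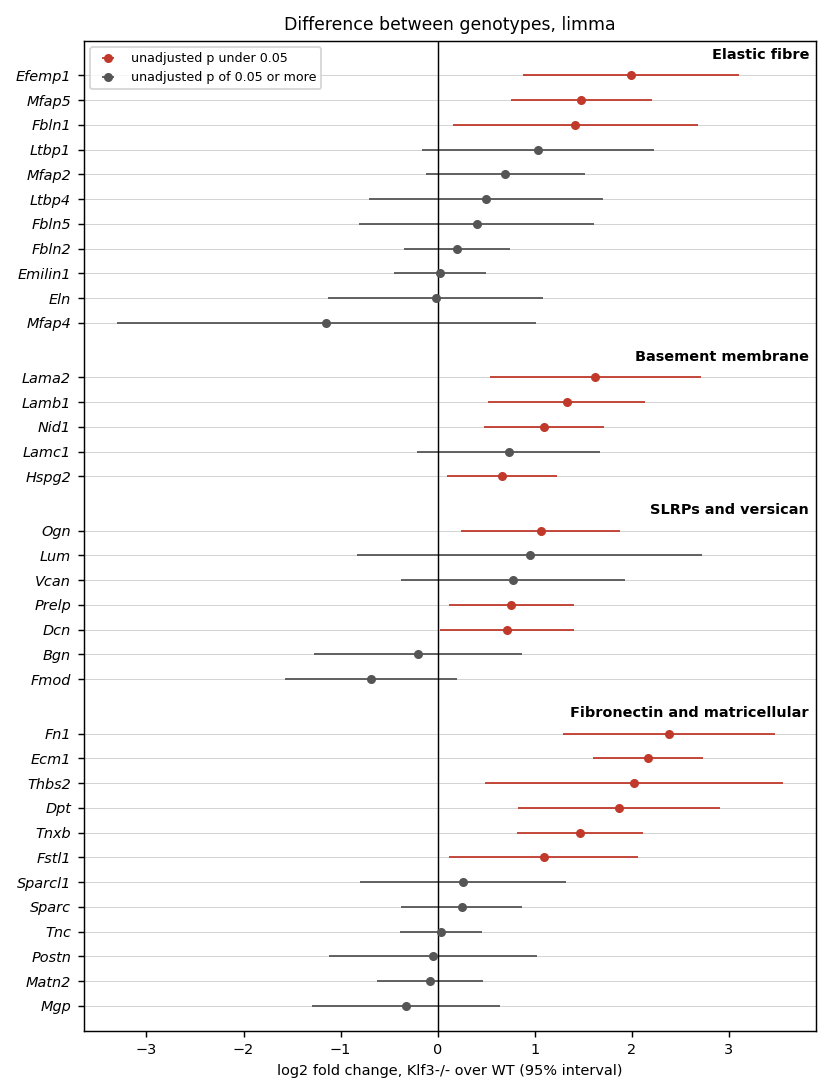
Log2 fold change (Klf3-/- over WT) of each measured gene with its 95% interval from limma, by role and size. Red marks the 16 genes at an unadjusted p under 0.05, none of which passed after adjustment over all probe sets; all 5 basement membrane genes lie to the right of 0, while the elastic fibre genes run from Mfap4 at −1.15 to Efemp1 at 1.99.

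Further probe sets of the same genes mostly ran the same way. For 17 members there were 24 further probe sets, 20 of which had the sign of the brightest one, as had 15 of the 17 that lay above the background level. Those above the level that ran the other way belonged to Eln and Fbln1.

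Single mice weighed heavily on these values. Klf3-/- mouse 2 held the highest of the 6 values in 24 of 35 members and the mean over the members was 8.95 there, against 8.26 and 8.19 in Klf3-/- mice 1 and 3. WT mouse 3 was the highest WT mouse in 25 members, with a mean of 8.15 over the members against 7.37 and 7.62 in WT mice 1 and 2. In 9 members, namely Fbln5, Eln, Bgn, Fmod, Sparc, Mgp, Mfap4, Emilin1 and Matn2, WT mouse 3 held the highest value of all. Smooth muscle, pericyte and endothelial marker genes summed to their highest level in the same mouse, and their part in these values was not tested.
Mice carry replicate numbers, and arrays of the same number shared some variation. Within replicate 1 the Klf3-/- mouse was higher in 29 of 35 members, with a median difference of 0.93, and within replicate 2 in 32 with a median of 1.51. Within replicate 3 it was higher in 20, with a median of 0.05. Ecm1, Fn1, Tnxb, Dpt and Efemp1 were higher by over 1 log2 unit in all 3 replicates, the replicate 3 differences being 1.87, 1.88, 1.33, 1.23 and 1.18. Lum differed by 1.49 and 2.38 in replicates 1 and 2 and by −1.03 in replicate 3.
The median log2 fold change over the members was 0.50 without Klf3-/- mouse 2 and 0.94 without Klf3-/- mouse 3. Without WT mouse 1, 10 members were higher and 2, Fmod (−1.05) and Mfap4 (−2.11), lower by the same unadjusted threshold, beside 2.75% and 2.00% of all genes. When the replicate number was a block, 15 were higher and 1, Mfap4, was lower, beside 4.45% and 3.50% of all genes. Dcn and Fstl1 no longer had an unadjusted p under 0.05 with the block (blocked adjusted p = 0.700 and 0.701), and Ltbp1 then had one (blocked adjusted p = 0.685). As deposited, without scaling between arrays, the members' median was 0.96 beside 0.13 over all genes, and 5 members in place of 16 had no overlap, where 4.21% of all genes lay above.

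**Figure D3:**
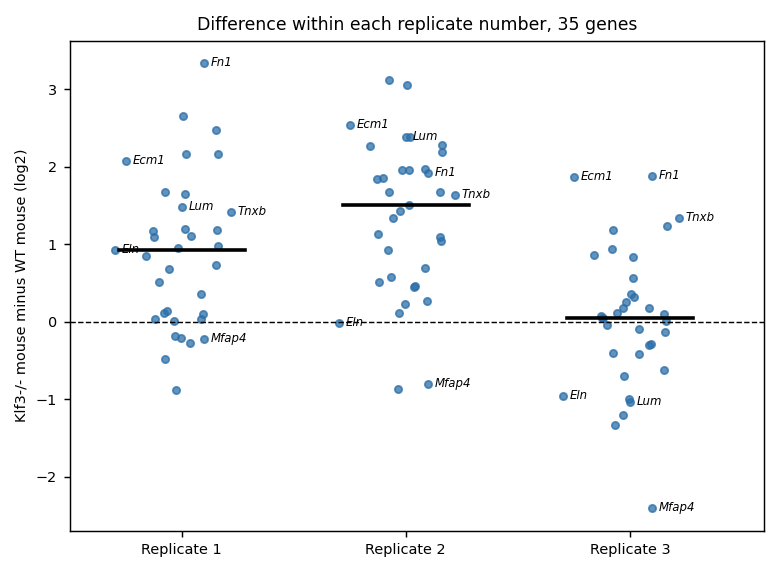
Klf3-/- mouse minus WT mouse (log2) within each replicate number, 1 point per gene with 6 genes labelled and black bars at the medians of 0.93, 1.51 and 0.05. Most points lie above 0 in replicates 1 and 2, and in replicate 3 they lie on both sides, with Ecm1, Fn1 and Tnxb still above 1.

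Genes of the same kind outside the group were listed separately. Of 60 further matrix glycoproteins and proteoglycans 36 were higher and 24 lower, and the median log2 fold change was 0.10. At an unadjusted p under 0.05 stood 10 on the higher side and 0 on the lower, and 0 passed an adjusted p of 0.05. Of all genes 3.61% were higher and 2.47% lower at the unadjusted threshold, for this list and for the receptors below. Pcolce, an enhancer of procollagen processing, had 1.64 (adjusted p = 0.200), the laminin chain Lamb3 1.72 and the elastic fibre protein Emilin2 1.78 (adjusted p = 0.663 each). Of 26 matrix receptors 17 were higher, with a median of 0.08 and 3 higher at an unadjusted p under 0.05, namely the glypican Gpc6 (1.77), dystroglycan (Dag1, 0.77) and the collagen receptor Ddr2 (0.47), with adjusted p = 0.854, 0.868 and 0.884. The lists differ in how many of their genes lie above the background level, 32 of 35 for the members, 36 of 60 for the further genes and 22 of 26 for the receptors, and the difference between them was not tested.

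Markers of cells that make matrix were read on the same arrays. At an unadjusted p under 0.05, 3.61% of all genes were higher and 2.47% lower, the shares to set beside each cell type list. Of 19 stromal fibroblast and adipocyte progenitor markers, none of them a member, 18 were higher in the Klf3-/- samples. Of these, 9 had an unadjusted p under 0.05, and the median log2 fold change over the 19 was 0.96. Their summed normalised intensity ran from 11038 to 17883 in WT mice and from 18990 to 28915 in Klf3-/- mice, highest in Klf3-/- mouse 2 and, among WT, in mouse 3. Col3a1 and Gsn were the brightest (log2 fold changes 0.30 and 0.88) and Igfbp6 and Clec3b had the smallest p (1.88 and 1.24). Of the markers that define these cells, Pdgfra was at 0.98 (95% interval −0.92 to 2.88) and Pdgfrb at −0.10. Pdgfra read 5.04, 4.88 and 6.12 in the WT mice against 5.52, 8.29 and 5.17 in the Klf3-/- mice. Its difference rested on Klf3-/- mouse 2, and WT mouse 3 exceeded the other Klf3-/- mice. Among the 19 markers Tcf21 (0.02) alone lay below the background level. The part of such cells in the members' values was not tested, and in bulk RNA more cells of a type and more RNA per cell cannot be told apart. The gate took CD45+ cells, and the purity of the sorted cells was not tested here.
Of 8 smooth muscle and pericyte markers 6 were lower, with a median of −0.48, and 2 were lower at an unadjusted p under 0.05, Cnn1 (−0.74), whose mean of 4.76 over all arrays is below the background level, and Myh11 (−1.24), beside the brightest, Acta2 (−0.94). Their sum ran from 2177 to 4630 in WT and from 1069 to 2742 in Klf3-/-. Of 11 endothelial markers 9 were lower, with a median of −0.17 and 0 at an unadjusted p under 0.05, with the brightest, Fabp4 and Pecam1, at −0.17 and −0.01 and the smallest p for Tek (1.08) and Esam (−0.68). Their sum ran from 3374 to 12248 in WT and from 3421 to 8573 in Klf3-/-. As sums are of linear intensities, Fabp4 weighed most in this one.
Of 14 macrophage markers 12 were higher, with a median of 0.22, 2 at an unadjusted p under 0.05, Lyve1 (2.21) and Folr2 (1.60), and the brightest, C1qa and C1qb, at 0.14 each. Their sum ran from 10286 to 20039 in WT and from 14615 to 33436 in Klf3-/-. Of 8 mesothelial markers 4 were higher, Krt19 (2.70) and Krt7 (2.86) at an unadjusted p under 0.05. In Krt7 the genotypes overlapped, with Klf3-/- mouse 2 (4.65) below WT mouse 2 (4.78). The others higher, Lrrn4 (0.05) and Gpm6a (0.007), lay below the background level. Of the 8, 3 lay above that level, Upk3b among them (−0.23), and sums were 237 to 262 in WT and 288 to 2307 in Klf3-/-. General leukocyte genes had a median of −0.03, with Cd53 (0.04) and Coro1a (−0.06) the brightest, Itgam (0.75) and Cd52 (−0.46) at the smallest p, and sums of 10647 to 13170 in WT and 10300 to 13397 in Klf3-/-. Eosinophil markers had a median of −0.11, with Cd300lf (−0.38) and Adgre4 (−0.36) the brightest, Siglecf (−0.42) and Prg3 (−0.73) at the smallest p, and sums of 551 to 770 in WT and 417 to 602 in Klf3-/-.

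**Figure D4:**
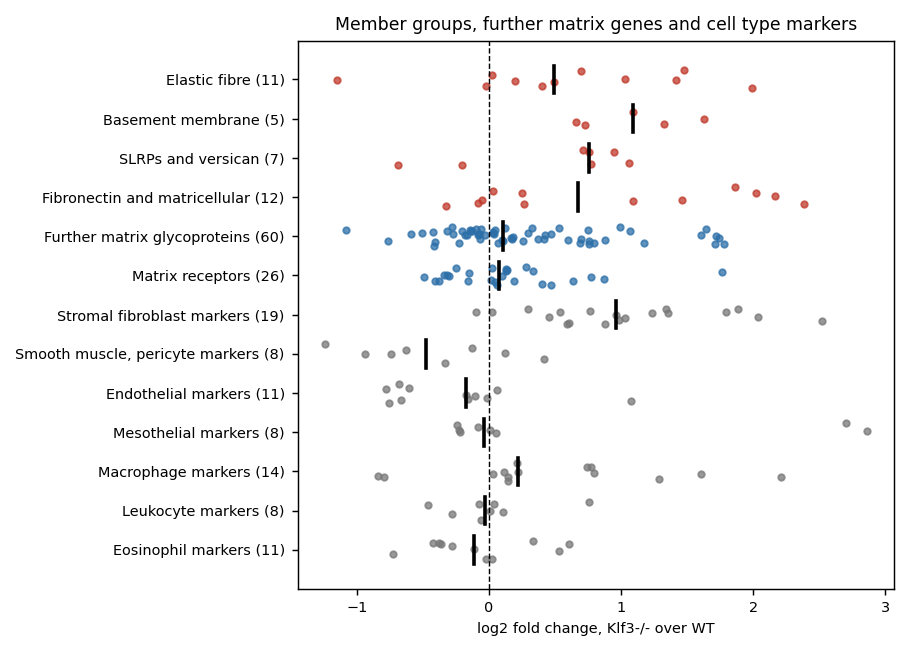
Log2 fold change (Klf3-/- over WT) of each measured gene in the member groups (red), further matrix lists (blue) and cell type marker lists (grey), with the number of genes in brackets and black bars at the medians. The basement membrane genes (1.09) and the stromal markers (0.96) have the highest medians, and the smooth muscle and pericyte markers (−0.48) the lowest.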

How the data were processed

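RNA of each mouse was read on 1 of 6 Affymetrix HT MG-430PM arrays after amplification with the 3′ IVT Pico Kit. Using Partek software, the authors made and deposited linear intensities of 45037 probe sets. A legend names RMA normalisation, without saying which of its steps were applied. As array medians differed by up to 1.94-fold, log2 values were taken and quantile normalisation was applied. Genotypes were compared with limma 3.58.1 (R 4.3.3, lmFit and eBayes, genotype as the only term), with Benjamini-Hochberg adjustment over all 45037 probe sets and a threshold of 0.05. The methods of the study name a two-way ANOVA with a false discovery rate, whose second factor it does not name.

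The platform annotation gave 28898 probe sets 1 symbol, 551 several and 15588 none. In the marker and pathway lists, 2 symbols were matched through RefSeq synonyms. The 95th percentile of the mean of 44 olfactory receptor probe sets (5.10) served as background, above which 24912 probe sets (55.3%) lay. Lists are described by counts and medians, with no set test. The genes, lists and the normalisation were chosen with earlier results of these data known. Values in every mouse are given for the 12 members with the smallest p and the 2 with the lowest log2 fold change, and in each role the members with the largest and smallest log2 fold change are given with both means. For each further pathway list the 3 genes with the smallest p are named, and for each cell type list the 2 brightest and the 2 with the smallest p. CACCC boxes were counted on both strands in RefSeq windows, a gene with several starts counting once.

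WT and Klf3-/- arrays with equal replicate numbers deviated together from their genotype means (r = 0.17, 0.23 and 0.21), and the labels call the mice litter-matched, so the replicate number was tried as a block. The number of arrays limits precision. The limma step was tested on simulated data. Figures were drawn with matplotlib 3.10.9.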

Additional observations from a re-analysis of the deposited data

How the results depend on the processing

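Across 14 alternatives, no member passed an adjusted p of 0.05, whether by limma or by analysis of variance (lowest adjusted p of a member 0.129). At an unadjusted p under 0.05 limma gave 2475 of all 45037 probe sets and the analysis of variance 2240. The members at an unadjusted p under 0.05 numbered 16 higher and 0 lower. They were 9 higher by the analysis of variance (2.29% of all genes higher, 3.08% lower) and 15 higher and 1 lower, Mfap4, with the replicate block, under which 4.45% and 3.50% of all genes were higher and lower. The block took Dcn and Fstl1 from those higher and added Ltbp1. Leaving out 1 array gave 10 to 18 higher, 0 to 2 lower, where 2.75% to 4.16% of all genes were higher and 1.84% to 2.77% lower, and the lowest count higher and both lower calls came without WT mouse 1. Members without overlap numbered 5 as deposited in place of 16, and the cause was not tested. Centring on array medians, trend and robust fitting, leaving out dim probe sets (which dropped 3 members), leaving out cross-hybridising probe sets and averaging all probe sets of a gene kept each count within 1.5 times.

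The sign held under every alternative in 26 members, including all 16 at an unadjusted p under 0.05, and turned under at least 1 in 9 members with small differences. As deposited, Bgn had a log2 fold change of 0.026, Matn2 0.036, Postn 0.21 and Eln 0.18. Tnc had −0.079 after centring on medians, and over the mean of all probe sets Fbln5 had −0.20 and Eln 0.054. Leaving out 1 array, the lowest and highest values were −0.45 and 0.28 for Postn, −0.058 and 1.02 for Fbln5, −0.18 and 0.61 for Sparcl1, −0.11 and 0.18 for Emilin1, −0.66 and 0.033 for Mgp, −0.57 and 0.24 for Bgn, −0.29 and 0.071 for Matn2, −0.050 and 0.12 for Tnc, and −0.30 and 0.49 for Eln.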
